A study of Homo sapiens with 6 samples.

Results

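Alcohol and aldehyde dehydrogenases were examined in hepatocyte-like cells exposed to HFPO-TA. The set was 10 genes taken by symbol, 6 alcohol dehydrogenases (ADH1A, ADH1B, ADH1C, ADH4, ADH5 and ADH6) and 4 aldehyde dehydrogenases (ALDH1A1, ALDH1B1, ALDH2 and ALDH3A2). All 10 were found among the 60623 genes of the RNA sequencing tables. The cells were hepatoblasts at day 19, made from the human embryonic stem cell line H9 by a published hepatocyte-like differentiation. HFPO-TA, the fluorinated ether acid hexafluoropropylene oxide trimer acid, was given to the cells of 3 libraries, and 0.1% DMSO to the control cells of the other 3. The dose of HFPO-TA is printed as 10 in a garbled unit, so no unit is stated, and a vehicle share is given for the control alone. The title of the series names liver toxicity as its subject. All 6 libraries come from 1 cell line, and separate cultures are not stated, so p-values measure a spread between libraries that may be technical.

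Alcohol dehydrogenases are zinc enzymes of the cytosol that oxidise alcohols to aldehydes with NAD, and aldehyde dehydrogenases carry the aldehydes on to acids. In adult liver the class I enzymes ADH1A, ADH1B and ADH1C clear most ethanol as acetaldehyde, which mitochondrial ALDH2 turns into acetate. The same families handle retinol and retinal, formaldehyde and the aldehydes of lipids.

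The class I genes are shown first, because they are near-identical copies and their values have to be read with that in mind. ADH1A, ADH1B and ADH1C each encode 1125 bases without the stop codon in GENCODE 29 (GRCh38), and their coding sequences were 93.9% to 95.6% identical to one another. Between all other pairs of the 6 alcohol dehydrogenases identity was 65.9% to 68.3%. Coding bases 1 to 90, in GENCODE 29 transcripts on the minus strand of chromosome 4, are shown with the 3 positions at which the genes differ in capitals.
ADH1A: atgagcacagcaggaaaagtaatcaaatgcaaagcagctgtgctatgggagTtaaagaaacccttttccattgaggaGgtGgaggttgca
ADH1B: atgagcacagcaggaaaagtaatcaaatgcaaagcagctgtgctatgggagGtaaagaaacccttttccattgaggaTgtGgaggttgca
ADH1C: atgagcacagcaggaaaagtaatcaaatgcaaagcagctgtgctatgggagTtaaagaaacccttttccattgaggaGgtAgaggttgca
The other 87 positions were the same in all 3 genes. Of all stretches of 100 bases in the main transcript, 96.5% of ADH1A, 98.1% of ADH1B and 93.4% of ADH1C occurred in no transcript of another gene, against 79.7%, 90.5% and 79.1% of stretches of 50 bases. Read length is not given in the sources used here.

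The windows of 250 bases before the RefSeq start (GRCh38.p14) are shown for ADH1A, ADH4, ADH5 and ALDH1A1, whose levels ran from 0 to the highest of the set. Capitals mark the CG dinucleotides.
ADH1A (chr4:99290986-99291235, minus strand): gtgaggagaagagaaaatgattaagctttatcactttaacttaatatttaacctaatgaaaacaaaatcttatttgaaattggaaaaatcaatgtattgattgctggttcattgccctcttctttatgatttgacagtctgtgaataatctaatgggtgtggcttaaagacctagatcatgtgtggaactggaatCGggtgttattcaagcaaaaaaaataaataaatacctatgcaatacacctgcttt
ADH4 (chr4:99144298-99144547, minus strand): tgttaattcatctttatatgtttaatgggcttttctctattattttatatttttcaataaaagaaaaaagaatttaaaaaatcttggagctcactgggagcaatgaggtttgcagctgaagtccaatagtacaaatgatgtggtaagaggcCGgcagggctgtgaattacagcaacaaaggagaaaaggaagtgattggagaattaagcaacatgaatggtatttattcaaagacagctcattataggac
ADH5 (chr4:99088789-99089038, minus strand): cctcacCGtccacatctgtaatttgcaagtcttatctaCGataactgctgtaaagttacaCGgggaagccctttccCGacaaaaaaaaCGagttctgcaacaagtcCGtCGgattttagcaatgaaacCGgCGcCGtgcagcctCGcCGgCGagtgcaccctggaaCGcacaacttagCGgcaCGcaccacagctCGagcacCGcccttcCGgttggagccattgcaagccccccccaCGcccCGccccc
ALDH1A1 (chr9:72953054-72953303, minus strand): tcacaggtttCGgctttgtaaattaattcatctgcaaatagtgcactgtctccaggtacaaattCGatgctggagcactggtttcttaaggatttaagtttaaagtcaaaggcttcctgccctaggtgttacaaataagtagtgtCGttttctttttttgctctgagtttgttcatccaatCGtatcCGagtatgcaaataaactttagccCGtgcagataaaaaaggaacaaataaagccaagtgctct
Windows were matched for 9 of the 10 members, all but ALDH2. CG occurred once in the windows of ADH1A, ADH1B, ADH4 and ADH6, 6 times in ADH1C and ALDH1A1, 9 times in ALDH3A2, 21 times in ADH5 and 23 times in ALDH1B1, against a median of 11 over 35114 RefSeq windows. On either strand, TATAAA was present in the window of ADH4 alone among the 9 and in 10.7% of all windows.

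Levels are in TPM, transcript abundances scaled to a fixed total and per length, which can be compared between genes. Neither ADH1A nor ADH1B had a value above 0: both are listed at 0 TPM in all 6 libraries. ADH1C, the third class I gene, was listed at 0.07, 0 and 0 TPM with HFPO-TA, against 0, 0.12 and 0 TPM with DMSO. Summed over the 3 genes, which takes in reads given to any of them, the highest library had 0.12 TPM. Stretches of 50 and of 100 bases of ADH1A also occurred in AP002026.1, an antisense gene listed at 0.2 to 0.71 TPM. Reads given to AP002026.1 lie outside the sum, and their part was not tested. The main transcripts were 1499 (ADH1A), 4072 (ADH1B) and 1740 (ADH1C) bases long, so this sum still depends in part on how reads were split. Of 60 genes used by every cell, 59 were found and 0 were listed at 0 in any library. Depth is unknown in TPM, so these zeros carry no upper limit, and fewer cells expressing a gene cannot be told apart from less RNA per cell in bulk samples. No fold change is given for the class I genes.

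ALDH1A1, a cytosolic enzyme that makes retinoic acid from retinal, was the most abundant member. It measured 395, 528 and 518 TPM with HFPO-TA and 484, 507 and 442 TPM with DMSO, so the groups overlapped and HFPO-TA replicate 1 was the lowest of the 6. Its mean of 480 ± 74.2 TPM with HFPO-TA and 478 ± 32.7 TPM with DMSO (SD, n = 3 each) ranked 246th and 250th among all genes. ALDH1A1 supplied 58.2% of the TPM of the 10 members in either group.

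ADH5, the class III enzyme, works on the glutathione adduct of formaldehyde and is found in nearly all tissues. Its level was 124, 135 and 127 TPM with HFPO-TA, against 113, 121 and 124 TPM with DMSO. ALDH3A2, the fatty aldehyde dehydrogenase of endoplasmic reticulum membranes, measured 102, 115 and 114 TPM with HFPO-TA and 108, 128 and 111 TPM with DMSO. ALDH2 measured 94.3, 94.1 and 92.2 TPM with HFPO-TA and 92.2, 88.2 and 97.5 TPM with DMSO. In all 3 genes the groups overlapped. With ALDH1A1 they made up 98.5% of the members' TPM with HFPO-TA and 98.1% with DMSO.

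The remaining members were low. ALDH1B1, a mitochondrial relative of ALDH2, had 7.05, 6.42 and 7.98 TPM with HFPO-TA and 6.93, 6.65 and 5.71 TPM with DMSO, and its groups overlapped. ADH4, the class II enzyme typical of liver, which oxidises ethanol at high concentration and retinol, had 4.79, 3.23 and 3.76 TPM with HFPO-TA and 7.28, 10.1 and 7.03 TPM with DMSO. All ADH4 values with HFPO-TA lay below all those with DMSO. ADH6, a class V gene transcribed in liver, had 1.41, 1.93 and 1.51 TPM with HFPO-TA and 0.94, 1.30 and 0.53 TPM with DMSO, here with all HFPO-TA values the higher ones. Of the class I and class II genes ADH4 alone passed 1 TPM, with a mean of 3.93 ± 0.79 TPM with HFPO-TA and 8.15 ± 1.72 TPM with DMSO (SD, n = 3 each).

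**Figure D1:**
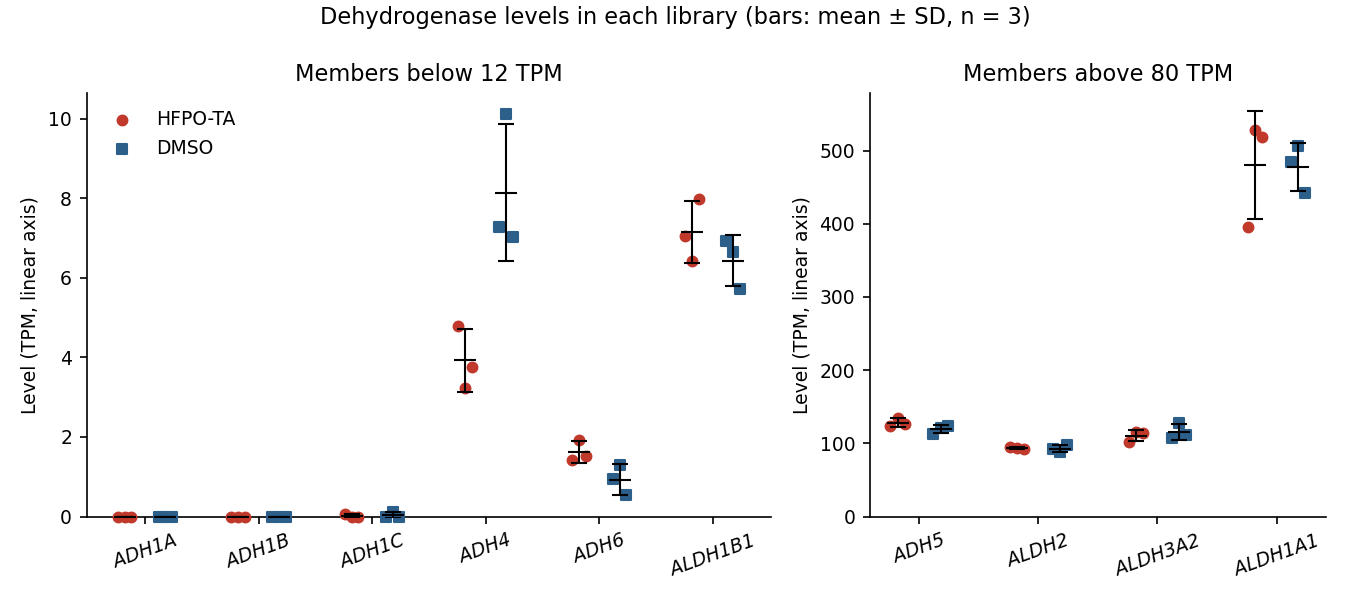
Level of each of the 10 dehydrogenases in TPM on linear axes, with members below 12 TPM on the left and those above 80 TPM on the right. Red circles are the 3 HFPO-TA libraries, blue squares the 3 DMSO libraries and black bars the mean ± SD; the groups part for ADH4, lower with HFPO-TA, and for ADH6, higher with HFPO-TA, and the class I genes lie at or near 0.

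With HFPO-TA the order of mean levels was ALDH1A1, ADH5, ALDH3A2, ALDH2, ALDH1B1, ADH4, ADH6 and ADH1C, and no library of one gene reached those of its neighbour. With DMSO, ADH4 stood above ALDH1B1, its lowest library at 7.03 TPM against the highest of ALDH1B1 at 6.93 TPM, while ADH5 and ALDH3A2 overlapped. Between ALDH2 and the next gene the means differed by 13.1 times with HFPO-TA and 11.4 times with DMSO.

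All 6 alcohol dehydrogenase genes lie side by side on the minus strand of chromosome 4, within 282 kb from 99070978 to 99353027 (GENCODE 29, GRCh38). ADH5, at one end, was the single member of the cluster above 11 TPM. ADH4 (99123657 to 99157792) and ADH6 (99202638 to 99219537) follow, then ADH1A, ADH1B and ADH1C, of which the last 2 overlap by 16269 bases in the annotation. Beyond them ADH7, the class IV enzyme of stomach, was listed at 0 TPM in all libraries. AP002026.1, an antisense gene on the opposite strand, spans ADH4, ADH6 and ADH1A and averaged 0.53 TPM with HFPO-TA and 0.26 TPM with DMSO. Whether counting used strand is not given. On either strand, 100% of the stretches of 50 bases in the main transcript of ADH6 occurred in no transcript of another gene. For ADH4 the share was 99.8%, and AP002026.1 was not among the genes sharing the rest. For ADH1A the share was 79.7%, and the genes sharing the rest were ADH1B, AP002026.1 and ADH1C. Other transcripts of ADH4 and ADH6 were not searched, and the part of antisense reads in their values was not tested. The aldehyde dehydrogenases are spread over other chromosomes, with ALDH1B1 (38392664 to 38398661) and ALDH1A1 (72900662 to 73080442) on chromosome 9, ALDH2 (111766887 to 111817529) on chromosome 12 and ALDH3A2 (19648136 to 19677598) on chromosome 17.

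**Figure D2:**
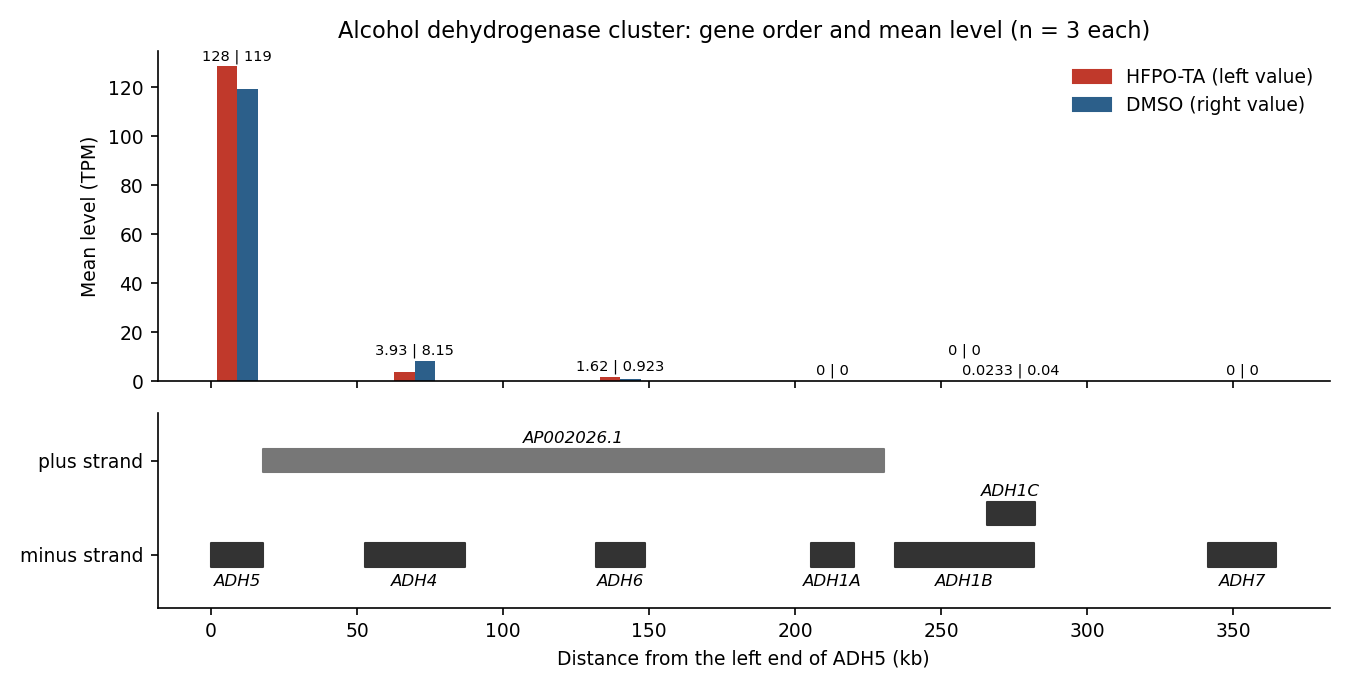
Gene order in the alcohol dehydrogenase cluster, as distance in kb from the left end of ADH5 (lower part), with the mean TPM of each gene above it (red bar and left value HFPO-TA, blue bar and right value DMSO, n = 3 each). ADH5 stands at 128 and 119 TPM while the next highest gene, ADH4, stands at 3.93 and 8.15 TPM.

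The comparison of HFPO-TA with DMSO asked which of these genes respond to the compound. None passed: of the 7 members that reached 1 TPM in 3 or more libraries, 0 were called at an adjusted p under 0.05 (limma on log2(TPM + 1), Benjamini-Hochberg over 15664 genes). Over all tested genes 0.492% were called (0.185% higher and 0.306% lower). This balance depended on the processing: in 7 of 17 alternatives more genes were called higher than lower, with upper-quartile scaling among them (52.9% of calls higher, against 37.7%). Without adjustment, 1 member had a p under 0.05, ADH4, against 12% of all tested genes. Groups that did not overlap were found for ADH4 (lower) and ADH6 (higher) among the 7, against 17.9% of all tested genes, 8.55% higher and 9.4% lower. The 3 class I genes lay under the filter, and ADH6 passed it with all HFPO-TA libraries but with DMSO replicate 2 alone of its group. On the log2(TPM + 1) scale the median difference of the 7 was 0.01, beside -0.01 over all tested genes.

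ADH4 had the largest difference of the 7. Its log2 fold change was -0.89 (SE 0.18, 95% interval -1.30 to -0.47, adjusted p = 0.0901), and the ratio of mean TPM was 0.482. By p it ranked 198th of the 15664 tested genes. Leaving out HFPO-TA replicate 1 gave a call for ADH4 (-1.01, adjusted p = 0.0413), and its adjusted p lay between 0.0413 and 0.285 over all alternatives. Within the libraries that share a letter in their column headers, unexplained by the labels, the difference was -0.52 for replicate 1 (1 library a group, untested) and -1.08 for replicates 2 and 3 (adjusted p = 0.0598).

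ADH6 differed by 0.46 on the log2 scale (SE 0.21, 95% interval -0.02 to 0.93, adjusted p = 0.431). A pseudocount of 0.1 in place of 1 gave 0.81 for this low gene (adjusted p = 0.448). ADH5 had a difference of 0.11 (95% interval -0.04 to 0.26, adjusted p = 0.589) and ALDH1B1 one of 0.13 (95% interval -0.17 to 0.43, adjusted p = 0.760).

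For the 3 most abundant aldehyde dehydrogenases of the 10 members the interval of the difference spanned 0. ALDH2 differed by 0.01 on the log2 scale, with a 95% interval from -0.13 to 0.16, or 0.914 to 1.12 times on the TPM + 1 scale (adjusted p = 0.955). ALDH3A2 differed by -0.07 (95% interval -0.26 to 0.13, adjusted p = 0.831). For ALDH1A1 the difference was -0.00177 (95% interval -0.27 to 0.26, adjusted p = 0.996), and without HFPO-TA replicate 1 it was 0.13 (adjusted p = 0.358). It was -0.29 in replicate 1 and 0.14 in replicates 2 and 3, the libraries parted by the header letter. In HFPO-TA replicate 1, the lowest library for ALDH1A1, the summed level of 8 stromal and stellate markers was 2167 TPM, the highest of the 6 libraries. DMSO replicate 1 had the highest such sum of its group, 1889 TPM. There ALDH1A1 stood at 484 TPM, between 507 and 442 TPM in DMSO replicates 2 and 3. The part of stromal and stellate cells in the ALDH1A1 value was not tested.

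**Figure D3:**
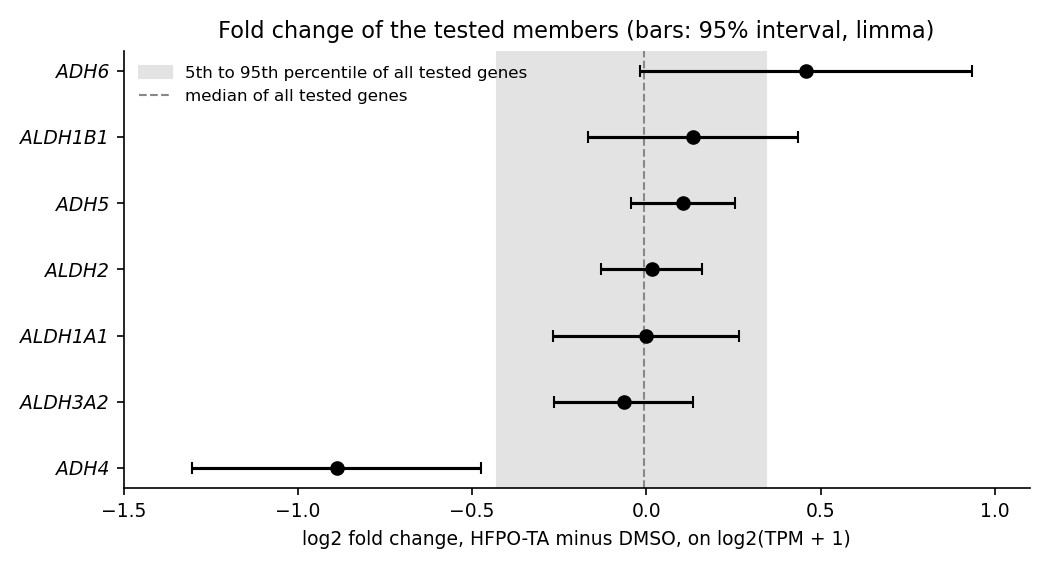
Log2 fold change (HFPO-TA minus DMSO, on log2(TPM + 1)) of the 7 tested members with 95% intervals from limma; the grey band holds the 5th to 95th percentile of all tested genes (-0.43 to 0.34) and the dashed line their median. ADH4 at -0.89 and ADH6 at 0.46 lie outside the band and the other 5 lie inside it.

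**Figure D4:**
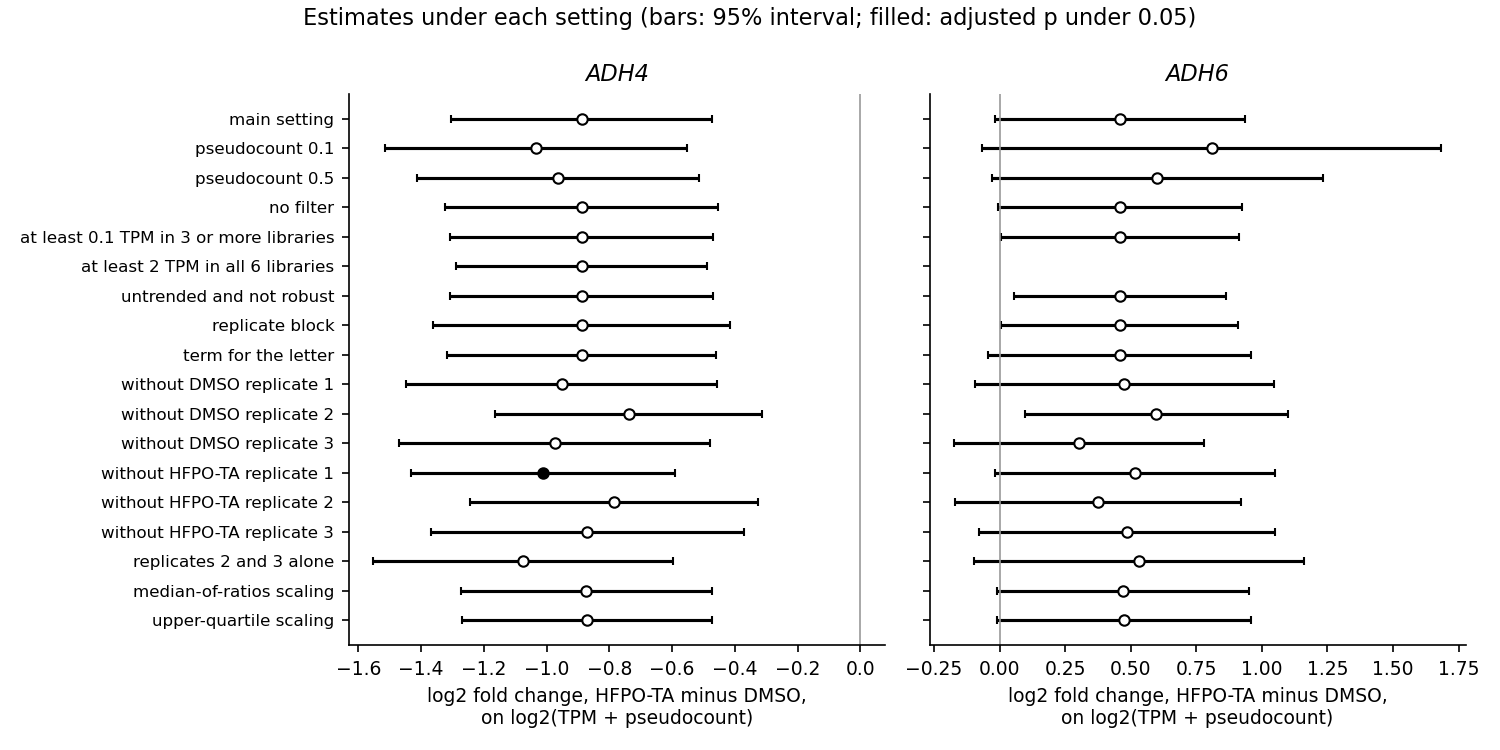
Log2 fold change (HFPO-TA minus DMSO) of ADH4 and ADH6 under each processing setting, with 95% intervals; a filled point marks an adjusted p under 0.05, and ADH6 has no value under the strictest filter. ADH4 stays between -1.08 and -0.74 and is filled once, without HFPO-TA replicate 1, and ADH6 stays between 0.30 and 0.81 and is never filled.

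Liver cell identity was checked with markers. All 10 hepatocyte markers were at 1 TPM or more, with AFP, the fetal serum protein, at 65021 ± 1828 TPM with HFPO-TA and 76581 ± 4242 TPM with DMSO (SD, n = 3 each). Of 7 adult hepatocyte markers found, 2 averaged 1 TPM or more. CPS1, the first enzyme of the urea cycle, lay between 78.5 and 81.9 TPM with HFPO-TA and between 82.6 and 110 TPM with DMSO. ARG1, its last enzyme, averaged 0.92 TPM with HFPO-TA and 1.33 TPM with DMSO. CYP3A4, a drug-metabolising cytochrome P450, reached 1.42 TPM in HFPO-TA replicate 2, and CYP2E1, CYP7A1 and TAT stayed under 1 TPM in every library. Of 7 gut markers, 4 averaged 1 TPM or more: CDX2, VIL1, CDH17 and FABP2. CDX2, an intestinal transcription factor, stood at 58.5 ± 4.29 TPM with HFPO-TA and 61.6 ± 9.92 TPM with DMSO (SD, n = 3 each). LGR5 and MUC2 stayed under 1 TPM in every library, and SI averaged 0.75 TPM with HFPO-TA and 0.95 TPM with DMSO.

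Summed hepatocyte markers ran from 105632 to 114651 TPM with HFPO-TA and from 115702 to 129033 TPM with DMSO. AFP made up 57.5% to 62.0% of these sums, and without it, a choice made after the data were seen, the groups overlapped, at 42481 to 48056 TPM with HFPO-TA and 44020 to 50036 TPM with DMSO. Among the other 9 markers APOA1 was the largest, averaging 21420 TPM with HFPO-TA and 20579 TPM with DMSO, and its groups overlapped. Of these 9, 5 had all HFPO-TA libraries below all DMSO libraries and 1 had them above. Of the 10 markers, 6 had all HFPO-TA libraries below all DMSO libraries, 1 had them above and 3 overlapped. Over all tested genes the groups parted in this way for 9.4% (lower) and 8.55% (higher). With limma 1 marker was called, 7 had an unadjusted p under 0.05 and 7 lay below 0. Over all tested genes 0.492% were called and 12% had an unadjusted p under 0.05. FGB, a fibrinogen chain, fell (log2 fold change -0.97, SE 0.09, adjusted p = 0.0104). That call was lost in 6 of 17 alternatives, at an adjusted p of 0.0583 without a filter, 0.0775 with an untrended variance, 0.0802 with the replicate block, 0.0553 without DMSO replicate 2, 0.0991 without DMSO replicate 3 and 0.0789 without HFPO-TA replicate 2; its log2 fold change stayed between -1.13 and -0.89. APOA2, an apolipoprotein of high-density lipoprotein, lay the other way, at 7099, 8535 and 9126 TPM with HFPO-TA and 4518, 5665 and 5679 TPM with DMSO (log2 fold change 0.64, SE 0.12, adjusted p = 0.0889). It was called in 4 of the 17 alternatives, among them the replicate block (adjusted p = 0.00689), and its adjusted p ran from 0.00109 to 0.293. ALB, lower with HFPO-TA (limma log2 fold change -0.80, SE 0.13, adjusted p = 0.0522), was also called in 4 of the 17. TTR was called in 3 and AFP and SERPINA1 in 2 each, all of them lower. APOA1, APOB, TF and HNF4A were called in 0. The part of cell identity in the ADH4 difference was not tested.

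Liver genes of these families are driven by hepatic transcription factors, of which 16 were listed. Of the 13 tested, 0 were called with limma, 7 had an unadjusted p under 0.05 (12% of all tested genes did) and 7 lay above 0.

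Of 17 other alcohol and aldehyde dehydrogenase genes, 13 were tested with limma, 0 were called, 2 had an unadjusted p under 0.05, 7 lay above 0 and the median was 0.02. ALDH6A1, a mitochondrial enzyme of valine breakdown, had the smallest p, at 73.8, 72.0 and 71.4 TPM with HFPO-TA and 66.8, 55.1 and 58.6 TPM with DMSO (log2 fold change 0.27, SE 0.08, adjusted p = 0.245). Its groups did not overlap. The most abundant of them was ALDH18A1, which makes a proline precursor, at 157 ± 3.82 TPM with HFPO-TA and 160 ± 18.5 TPM with DMSO (SD, n = 3 each). ALDH1A2 and ALDH1A3, which also make retinoic acid, averaged 0.94 and 1.79 TPM with HFPO-TA and 0.62 and 1.01 TPM with DMSO, far under ALDH1A1.

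The routes of ethanol oxidation outside the dehydrogenases were low as well. CYP2E1, the ethanol-oxidising cytochrome P450 of liver, stood at 0.64 ± 0.18 TPM with HFPO-TA and 0.75 ± 0.21 TPM with DMSO. Catalase, CAT, which can oxidise ethanol in peroxisomes, stood at 0.13 ± 0.12 TPM with HFPO-TA and 0.12 ± 0.12 TPM with DMSO (SD, n = 3 each for both). By contrast ACSS2, which activates acetate in the cytosol, had 114 ± 3.01 TPM with HFPO-TA and 112 ± 2.82 TPM with DMSO (SD, n = 3 each). The 3 acetate-activating genes were tested with limma, with 0 called, 0 at an unadjusted p under 0.05 and a median of 0.02; ACSS1 had the smallest p (adjusted p = 0.835).

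Partners of ADH5 in formaldehyde disposal were abundant. ESD, which hydrolyses the product of ADH5, had 103, 91.7 and 91.3 TPM with HFPO-TA and 81.9, 77.2 and 72.7 TPM with DMSO. Those groups did not overlap, and the difference did not pass (log2 fold change 0.30, SE 0.08, 95% interval 0.12 to 0.48, adjusted p = 0.165). Of the 3 genes for formaldehyde and methylglyoxal handling 0 were called by limma, 1 (ESD) had an unadjusted p under 0.05 and the median was 0.10.

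Retinol and retinal can also be converted by the short-chain dehydrogenases, listed here together with the aldehyde oxidase AOX1. Of these 11 oxidoreductases 8 were tested with limma, 0 were called, 1 had an unadjusted p under 0.05 and the median was -0.02. RDH5, a retinol dehydrogenase, had 11.2, 11.9 and 11.8 TPM with HFPO-TA and 14.7, 19.6 and 22.6 TPM with DMSO (log2 fold change -0.64, SE 0.15, adjusted p = 0.132), so that its groups did not overlap. It was called with replicates 2 and 3 alone. RDH13 stood at 58.5 TPM in DMSO replicate 1 against 12.4 to 18.6 TPM in the other 5 libraries.

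Aldo-keto reductases, which turn aldehydes back into alcohols, gave the largest single difference among the enzyme lists. AKR1C1, which reduces steroids and lipid aldehydes, had 92.6, 173 and 209 TPM with HFPO-TA and 51.2, 64.0 and 58.6 TPM with DMSO. Every HFPO-TA library was above every DMSO library, with HFPO-TA replicate 1 nearest to them (log2 fold change 1.36, SE 0.30, adjusted p = 0.161). It was called without HFPO-TA replicate 1, with replicates 2 and 3 alone and with a term for the header letter. AKR1C1 has close copies in AKR1C2 and AKR1C3, so its value is uncertain where reads are shared. Of the 9 tested reductases 0 were called by limma, 2 had an unadjusted p under 0.05, 6 lay above 0 and the median was 0.11. AKR1A1, which reduces many aldehydes, was the most abundant at 315 ± 28.2 TPM with HFPO-TA and 291 ± 12.8 TPM with DMSO (SD, n = 3 each).

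Upstream of ALDH3A2, CYP4 enzymes start the omega-oxidation of fatty acids, a route that passes through fatty aldehydes. CYP4F2, CYP4F11 and CYP4F12 are listed at 0 TPM throughout and CYP4A11, CYP4A22 and CYP4F3 stayed under 1 TPM in all libraries. Of the 10 genes listed for fatty aldehyde formation and omega-oxidation 4 were tested with limma. Of these 0 were called, 0 had an unadjusted p under 0.05 and the median was 0.07. FAR1, which makes fatty alcohols for ether lipids, had the smallest limma p (adjusted p = 0.777).

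**Figure D5:**
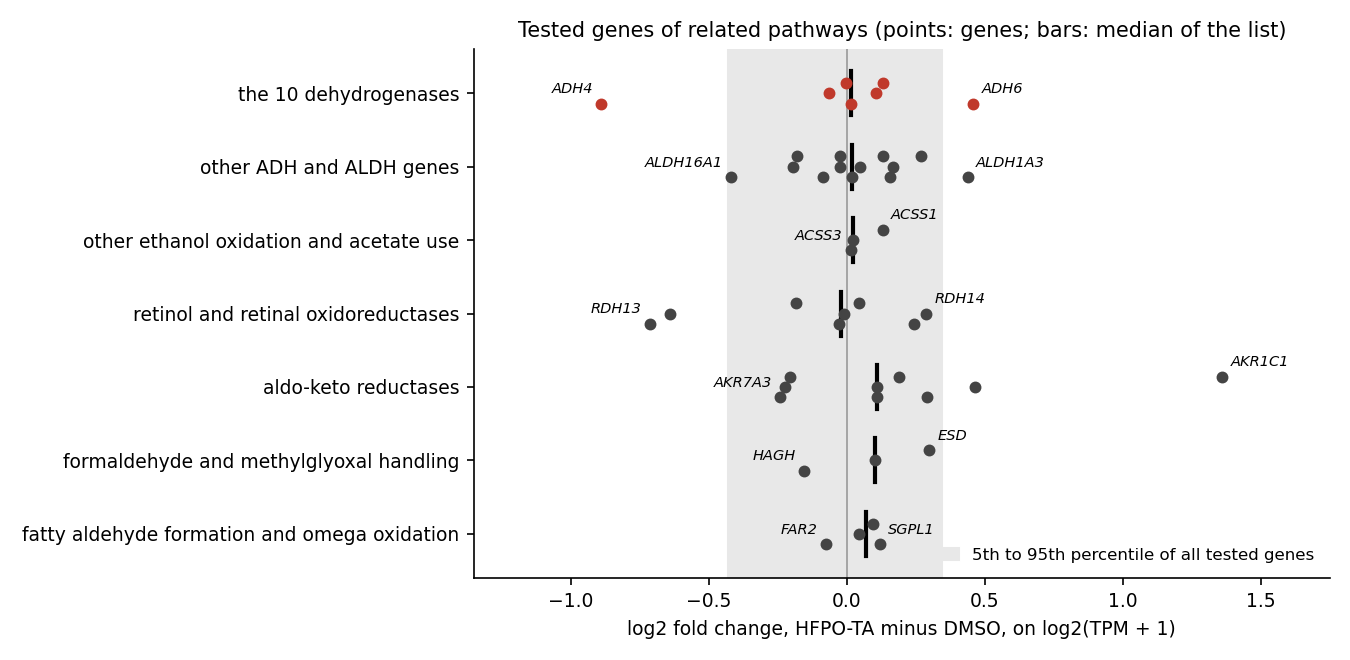
Log2 fold change (HFPO-TA minus DMSO, on log2(TPM + 1)) of each tested gene of the 10 dehydrogenases (red) and 6 related lists (grey), with the median of each list as a bar and the 5th to 95th percentile of all tested genes as a band. List medians lie between -0.02 and 0.11, and the lowest and highest gene of each list are named.

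The members did not vary as one. Over the 6 libraries the nearest pair was ALDH1A1 and ALDH3A2 (Pearson r = 0.71 on log2(TPM + 1)), followed by ADH5 and ADH6 (r = 0.58), and ADH4 was nearest to ALDH3A2 (r = 0.39). These are descriptions over 6 libraries that share a treatment split, with no test. Among 12419 genes with a mean of at least 2 TPM, 274 had an r of 0.9 or more with ADH4, led by EPS8L3 (r = 0.997), WWC2, ZNF711, OVOL2 and FILIP1L. For ALDH1A1 the number was 74, led by MAFF (r = 0.991), HSD3B1, TXNDC9, ABCC4 and CCNQ.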

How the data were processed

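RNA was sequenced from 6 libraries, 3 with HFPO-TA and 3 with DMSO. The authors deposited 1 value per gene and library under the header FPKM; each column sums to between 995690 and 996186, so the deposited values were read as TPM. Per the submitters' processing notes the tools were HISAT, Bowtie2 and RSEM and the build was GRCh38.p13, each without role or version. Library kit, strand and annotation are not given in the sources used. Depth cannot be had from TPM, and counting intervals are not given.

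The 15664 genes that reached 1 TPM in 3 or more libraries were tested with limma 3.58.1 in R 4.3.3 on log2(TPM + 1), treatment as the only term, trended and robust variance, 2-sided, Benjamini-Hochberg over all tested genes, called under 0.05. Each log2 fold change is HFPO-TA minus DMSO, and the pseudocount understates the change of low genes. The planned log2 test of the summed class I genes could not be computed, since the sum is listed at 0 in 4 libraries. Recovery was checked on simulated data of this comparison (15664 genes, 200 changed, 10 runs). The fit recovered 28.2% of changes of 0.5, 75.2% of changes of 1 and 93.9% of changes of 2 on the log2 scale. Changes were planted only in genes with a mean log2(TPM + 1) above 2, so lower genes such as ADH6 are not covered. Noise was drawn independently, so real recovery may be lower.

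All 10 members are named; of the pathway and marker lists, called genes and the gene with the smallest p in each pathway list are named, and others were chosen after their values were seen. Some genes the rule took are not reported here. Likeness was Pearson r over libraries, for the members with the smallest p and the highest level. Members and lists were chosen with earlier results of these data known. Positions and transcripts are from GENCODE 29 (58516 of 60623 identifiers found), promoters from RefSeq (GRCh38.p14), and coding sequences were aligned with Biopython 1.88. Alternatives covered pseudocount, filter, variance estimate, scaling, replicate block, a term for the header letter and each library left out. Figures were drawn with matplotlib 3.10.9.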

Additional observations from a re-analysis of the deposited data

How the results depend on the processing

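Called genes numbered 77 in all, and the number moved with every kind of choice but the pseudocount: 10 without a filter, 29 with a filter of 0.1 TPM in 3 libraries, 131 with one of 2 TPM in all 6, 11 with an untrended and not robust variance, 207 with a term for the header letter, 265 with replicates 2 and 3 alone, 30 with median-of-ratios and 17 with upper-quartile scaling. Leaving out 1 library gave 5 called genes (HFPO-TA replicate 2 left out) up to 296 (HFPO-TA replicate 1 left out). Of all called genes 37.7% were higher with HFPO-TA, but the share was 100% without DMSO replicate 3 (7 genes) and without HFPO-TA replicate 2 (5 genes), 72.7% with the untrended variance, 71.4% without DMSO replicate 2, 66.7% without HFPO-TA replicate 3, 60% without a filter and 52.9% with upper-quartile scaling. In the other 10 alternatives it was 29.4% to 41.4%. Called members stayed at 0 except for 1, ADH4, without HFPO-TA replicate 1, so these fits gave 0 to 1. The summed class I value differed by -0.0167 TPM between group means. Its sign turned without DMSO replicate 2 (0.0233 TPM), the only DMSO library with a value above 0. The alternatives computed for it kept within 1 SD, but that SD (0.0693 TPM, DMSO) is larger than the difference. Whether the numbers of replicates pair the libraries is not stated by the labels and was not tested. Deviations from the group means correlated at 0.184, 0.123 and 0.0282 for the same numbers. For different numbers they correlated at -0.158 to 0.0679. HFPO-TA replicate 1 correlated at 0.981 with DMSO replicate 1, and at 0.978 and 0.975 with HFPO-TA replicates 2 and 3. With the replicate block 30 genes and 0 members were called. Signs turned in 3 uncalled members. ALDH1A1 ran from -0.0763 to 0.133 with 1 library left out and was at 0.144 with replicates 2 and 3 alone, 0.0170 with median-of-ratios and 0.0211 with upper-quartile scaling. With 1 library left out ALDH2 ran from -0.0194 to 0.0522 and ALDH3A2 from -0.113 to 0.0111, both turned without DMSO replicate 2. ADH4, ADH5, ADH6 and ALDH1B1 kept their sign in all alternatives that tested them. Depth is unknown, so the class I zeros cannot be bounded. Replicate 1 alone has 1 library a group and was not tested.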

Other observations

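Markers of other cell types were summed per library. The 8 stromal and stellate markers summed to 1002 to 2167 TPM with HFPO-TA and 1222 to 1889 TPM with DMSO. With limma 0 of 8 were called, 0 had an unadjusted p under 0.05 and 8 of 8 log2 fold changes lay below 0. Mean TPM was nevertheless higher with HFPO-TA for LUM, DCN and ACTA2 (158, 17.4 and 44.3 TPM, against 150, 16.4 and 43.2 TPM with DMSO). For the other stromal and stellate markers it was lower. COL3A1, a fibrillar collagen, stood at 1191, 565 and 547 TPM with HFPO-TA and 1061, 696 and 794 TPM with DMSO, so that replicate 1 was the highest in each group. FABP2, a fatty acid binding protein of the small intestine, had 3.37, 5.77 and 4.06 TPM with HFPO-TA and 1.42, 1.14 and 1.47 TPM with DMSO (limma log2 fold change 1.18, SE 0.19, adjusted p = 0.0519). It was called without HFPO-TA replicate 1, with replicates 2 and 3 alone, with a term for the header letter and with a pseudocount of 0.1. Of 4 tested gut markers 0 were called by limma and 2 had an unadjusted p under 0.05, while 1, FABP2, lay above 0 and 3 below. The second with an unadjusted p under 0.05 was CDH17, which was lower with HFPO-TA (limma log2 fold change -0.35, SE 0.10, adjusted p = 0.230). Of 2 tested gastric markers 0 were called and 1 had an unadjusted p under 0.05; TFF1, a trefoil peptide of stomach, stood at 3.85 ± 1.88 TPM with HFPO-TA and 14.1 ± 5.13 TPM with DMSO (SD, n = 3 each; limma log2 fold change -1.66, SE 0.35, adjusted p = 0.116). No tested marker of the adult hepatocyte (2), pluripotency (3), endothelial (6), blood (1) or neural (2) lists was called with limma, and their unadjusted p was under 0.05 for 1, 1, 2, 0 and 0 of them.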
